A study of Homo sapiens with 34 samples.

Results

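MS4A proteins are small proteins of the cell membrane, most of which cross it 4 times, and their genes lie side by side on human chromosome 11. MS4A2 is the β chain of the high-affinity IgE receptor of mast cells and basophils, MS4A3 (HTm4) marks granulocyte and monocyte precursors and binds the phosphatase KAP, and MS4A4A, MS4A6A and MS4A7 are known from macrophages and microglia. The 5 genes were taken from the expression table by name, out of 20255 genes and of 10 MS4A genes in the table. They were selected on earlier results of these data, since MS4A3 and MS4A7 were among the largest differences between CD43+ and CD43- cells on days 12 and 16. Every comparison that holds sorted cells of day 12 or day 16 is therefore given for the 5 members as a description, with no test.

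H1 is an established line of human embryonic stem cells, and its RNA was sequenced on the way to blood cells. The samples are undifferentiated H1 cells without treatment (1 sample), embryoid bodies at day 0 with BMP4 and hVEGF, cells at days 2 and 4 labelled with hVEGF, and cells labelled with hVEGF that were sorted by CD43 at days 6, 9 and 12. At day 16 they were sorted into CD43-CD45- and CD43+/CD45+ cells, called CD43- and CD43+ here as well. CD43 is a surface glycoprotein of blood cells, and the study calls its protocol cytokine-free. By its methods BMP4 was in the medium with VEGF from the start of attachment and was left out when the medium was changed after day 2, so the cells of day 2 and of all later groups had been exposed to it. Each of the 11 populations from day 0 onwards has 3 replicates, all of 1 cell line, so nothing is known here of other lines. The study names RiboBio and Annoroad as sequencing companies, and the sample labels used here do not tell which samples went to which. Any part of this in the differences between days was not tested. The labels do not say that replicates were separate cultures, although the study describes them as independent. The p-values rest on a spread between replicates that the fit pools over the 11 populations, not on that of the compared samples alone.

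The deposited values are whole numbers that the authors normalized for GC content. Sorted by size they were identical in all 34 samples, with a median of 197 and a total of 17856940, so that a value is nearly a gene's rank among genes of like GC content and sequencing depth is unknown. Levels are therefore compared within a gene across samples; where a level is also placed by the share of genes below it, that share was not corrected for gene length and ranks no member against another. Of all genes, 19788 reached 10 in 3 or more samples. They were tested on the log2(value + 1) scale by limma in a single fit over 33 samples with replicates, and a gene was called at a Benjamini-Hochberg adjusted p below 0.05 and a fold change above 4. Fold changes on this scale understate the change of low genes. All 5 members passed this filter, but MS4A2 reached 10 only in CD43+ samples of days 12 and 16 and MS4A7 only from day 9 onwards, so their passing is no result. SPN, the gene of CD43, had values of 4458 to 9460 in the CD43+ samples of days 6 to 12 and 2338 to 2870 on day 16, against 18 to 328 in the CD43- samples. PTPRC, the gene of CD45, was 0 to 8 on day 6 and 634 to 749 in the day 9 CD43+ cells. In these bulk samples, fewer cells of a type and less RNA per cell cannot be told apart.

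The starts of the 10 MS4A genes of the table span 728761 bases of chromosome 11 (GRCh38). In chromosome order they are MS4A3, MS4A2, MS4A6A, MS4A4E, MS4A4A, MS4A7, MS4A14, MS4A8, MS4A15 and MS4A10. MS4A3 (ENSG00000149516) lies at chr11:60056587-60071128, MS4A2 (ENSG00000149534) at chr11:60088261-60098466, MS4A6A (ENSG00000110077) at chr11:60172014-60184666, MS4A4A (ENSG00000110079) at chr11:60280541-60308972 and MS4A7 (ENSG00000166927) at chr11:60378482-60395951. MS4A6A is on the minus strand and the other 4 members are on the plus strand. The deposited GC content of the 5 members lay between 38.41% (MS4A2) and 40.7% (MS4A7). GENCODE v29 lists 16 protein-coding MS4A genes on the chromosome, and 6 of them, including MS4A1 (CD20 of B cells), are not analysed here. MS4A7 shares 135 of its 4348 exonic bases with MS4A14 on the same strand, so the values of this pair may be uncertain, and the other 4 members share none with another annotated gene.

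The 250 bases before the start of each member are shown because each was called between sorted populations or moved with another member across the samples. They come from the RefSeq table of GRCh38.p14 and are written 5′ to 3′ on the strand of each gene. Capitals mark the letters GATAA (the core bound by GATA factors), GAGGAA (bound by the myeloid factor PU.1) and TTGCNNAA (bound by C/EBP factors), searched on both strands; no marked matches overlap. For MS4A6A, which has 4 RefSeq starts, the window at the start used by the deposited gene model is shown, and the RefSeq start of MS4A2 lies 403 bases inside its deposited gene model. The windows are chr11:60056415-60056664 for MS4A3, chr11:60088414-60088663 for MS4A2, chr11:60184667-60184916 for MS4A6A, chr11:60378282-60378531 for MS4A7 and chr11:60280416-60280665 for MS4A4A.
MS4A3: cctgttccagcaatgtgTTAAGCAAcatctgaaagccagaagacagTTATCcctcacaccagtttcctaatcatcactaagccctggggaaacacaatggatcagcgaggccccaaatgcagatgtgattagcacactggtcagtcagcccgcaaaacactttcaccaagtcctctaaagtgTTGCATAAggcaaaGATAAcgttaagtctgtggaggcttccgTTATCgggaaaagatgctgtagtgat
MS4A2: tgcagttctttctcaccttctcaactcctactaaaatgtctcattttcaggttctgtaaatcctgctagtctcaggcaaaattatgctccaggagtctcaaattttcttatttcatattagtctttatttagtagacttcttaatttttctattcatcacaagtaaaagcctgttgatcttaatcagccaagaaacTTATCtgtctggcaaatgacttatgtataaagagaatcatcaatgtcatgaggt
MS4A6A: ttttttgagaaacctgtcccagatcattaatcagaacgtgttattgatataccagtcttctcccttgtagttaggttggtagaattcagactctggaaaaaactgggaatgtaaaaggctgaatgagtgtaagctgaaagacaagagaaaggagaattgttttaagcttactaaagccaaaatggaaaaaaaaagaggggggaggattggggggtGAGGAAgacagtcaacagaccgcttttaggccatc
MS4A7: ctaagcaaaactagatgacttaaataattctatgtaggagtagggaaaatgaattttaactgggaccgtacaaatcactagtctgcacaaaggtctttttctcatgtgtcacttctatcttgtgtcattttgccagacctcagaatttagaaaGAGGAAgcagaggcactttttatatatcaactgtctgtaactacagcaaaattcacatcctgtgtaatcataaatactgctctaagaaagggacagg
MS4A4A: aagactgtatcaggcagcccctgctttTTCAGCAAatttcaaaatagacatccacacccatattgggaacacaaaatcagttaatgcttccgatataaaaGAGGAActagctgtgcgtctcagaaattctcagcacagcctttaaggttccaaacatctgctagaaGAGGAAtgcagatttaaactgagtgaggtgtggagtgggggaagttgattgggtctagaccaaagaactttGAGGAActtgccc
GATAA was found at 3 places before MS4A3, 204, 54 and 26 bases before the start, and once before MS4A2, 54 bases before its start, and not in the other 3 windows. GAGGAA was found once before MS4A6A (35 bases before the start), once before MS4A7 (97 bases) and 3 times before MS4A4A (150, 84 and 13 bases), and not before MS4A3 or MS4A2. TTGCNNAA was found before MS4A3 (233 and 68 bases) and MS4A4A (223 bases). Over all 35116 RefSeq windows of the same length, in which a gene can have several, 20.4% hold GATAA, 23.6% hold GAGGAA and 9.1% hold TTGCNNAA on either strand. These matches describe the letters only.

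MS4A3, the granulocyte and monocyte precursor gene, differed between the sorted populations from day 6. It had values of 0 to 1 in all samples of days 0 and 2 and of 30, 27 and 41 on day 4. On day 6 it stood at 176, 220 and 156 in CD43+ cells and at 0, 2 and 0 in CD43- cells. On day 9 it stood at 186, 151 and 219 in CD43+ cells and was listed at 0 in all 3 CD43- samples. The populations did not overlap on either day, and the CD43+ levels of days 6 and 9 overlapped each other.
The log2 difference between CD43+ and CD43- cells on day 6 was 6.99 (standard error 0.75, limma adjusted p = 1.95e-08). On day 9 the adjusted p was 1.93e-09 (limma), and no fold is given against samples at 0. MS4A3 also rose from day 2 to day 4 (log2 difference 4.38, adjusted p = 3.87e-05, limma), before any sorting. From day 4, it rose in the day 6 CD43+ cells (2.47, adjusted p = 0.00757, limma) and fell in the day 6 CD43- cells (-4.52, adjusted p = 2.46e-05, limma). Between days 6 and 9 the CD43+ cells gave a log2 difference of 0.01 (standard error 0.75, adjusted p = 1, limma). With a pseudocount of 0.1, the rise from day 4 to the day 6 CD43+ cells was no longer called (adjusted p = 0.125, limma). With a pseudocount of 10, the rise from day 2 to day 4 was 1.99 and the fall in the day 6 CD43- cells -1.99, both just under 4-fold, and over all alternatives the day 6 CD43 difference ranged from 4.18 to 9.37 and stayed called.

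On day 12, MS4A3 had values of 5644, 10446 and 12854 in CD43+ cells and of 0, 1 and 30 in CD43- cells. On day 16 they were 9248, 5562 and 8512 in CD43+/CD45+ cells and 39, 222 and 100 in CD43-CD45- cells. Its median was higher than that of 49.1% of genes in the day 9 CD43+ cells, 99.1% in those of day 12 and 98.7% in those of day 16. The log2 differences that chose this gene were 11.17 on day 12 and 6.30 on day 16. All 3 day 16 CD43- values were above all 3 of day 12, and the CD43+ values of these days overlapped. MPO, the peroxidase of neutrophil and monocyte granules, was at 4657, 12840 and 8970 in the same day 16 CD43- samples, and its order over the 3 samples was that of MS4A3. The part of other cells in that level of MS4A3 was not tested.

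MS4A6A and MS4A7, the genes known from macrophages, differed between the sorted populations from day 9. MS4A6A had values of 4, 6 and 8 in day 6 CD43+ cells and of 2, 2 and 4 in day 6 CD43- cells. On day 9 it stood at 60, 46 and 51 in CD43+ cells and at 6, 6 and 4 in CD43- cells, with no overlap. MS4A7 had values of 0 to 2 in every sample of days 0 to 6. On day 9 it had a value of 10 in each of the 3 CD43+ samples and was listed at 0 in each CD43- sample.
On day 6 the CD43 difference was 0.94 for MS4A6A (standard error 0.71, adjusted p = 0.284, limma) and -0.19 for MS4A7 (standard error 0.77, adjusted p = 0.86, limma). On day 9, MS4A6A was higher in CD43+ cells by 3.08 on the log2 scale (standard error 0.71, adjusted p = 0.000426, limma), and MS4A7 was called higher (adjusted p = 0.000306, limma). From day 6 to day 9, the CD43+ cells rose in MS4A6A by 2.96 (adjusted p = 0.002, limma) and in MS4A7 by 3.13 (adjusted p = 0.00261, limma). The CD43 difference itself changed between these days for MS4A7, by 3.65 (standard error 1.09, adjusted p = 0.0189, limma). For MS4A6A that change was 2.15 (standard error 1, adjusted p = 0.142, limma).
The day 9 calls of MS4A7 rest on values of 10: with a pseudocount of 10, the CD43 difference had an adjusted p of 0.101 and the rise from day 6 one of 0.192 (limma), and the rise of MS4A6A from day 6 to day 9 was 1.96, under 4-fold (adjusted p = 0.00523, limma). Without replicate 3 of the day 6 CD43- cells, the change of the CD43 difference of MS4A7 was 3.13 with an adjusted p of 0.0556 (limma).

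On day 12, MS4A6A had values of 6578, 2496 and 2448 in CD43+ cells and of 6, 112 and 204 in CD43- cells. MS4A7 had values of 3538, 1206 and 937 in CD43+ cells and of 4, 149 and 172 in CD43- cells. On day 16, MS4A6A stood at 4285, 3716 and 8494 in CD43+ cells and at 12, 23 and 30 in CD43- cells. MS4A7 stood at 2660, 2862 and 3298 in CD43+ cells and at 2, 3 and 4 in CD43- cells. The sorted populations did not overlap on either day. The log2 difference of MS4A7, which chose it on day 16, was 4.97 on day 12 and 9.55 on day 16, and that of MS4A6A was 5.97 and 7.91. The median of MS4A7 was above 20.1% of genes in the day 9 CD43+ cells, 82.9% on day 12 and 93.9% on day 16, and that of MS4A6A above 36.1%, 92.7% and 96.4%.

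Samples within a population of day 12 differed in a way that touches these levels. Among the day 12 CD43- samples, replicates 2 and 3 had the high values of MS4A6A and MS4A7, and PTPRC was at 197 and 371 there against 4 in replicate 1. The summed value of 16 macrophage genes was 4247 in replicate 1, 11739 in replicate 2 and 15457 in replicate 3. Without replicates 2 and 3, the day 12 log2 difference was 8.94 for MS4A6A and 8.31 for MS4A7.
Among the day 12 CD43+ samples, replicate 1 had the highest MS4A6A, MS4A7 and MS4A4A and the lowest MS4A3. The macrophage sum was 145401 in that replicate and 55651 and 47445 in the others, and all 16 macrophage genes are in the table. The sum of 10 eosinophil and basophil genes was 35086 in replicate 1 and 69516 and 68770 in the others, and without PRG2, which reached the highest value of the table in a day 16 sample, it was 14655, 21455 and 20709. MPO and LYZ stood at that highest value, 90700, in all 3 day 12 CD43+ samples, and the sum of the other 10 granulocyte precursor genes was 74593, 85296 and 98233. C1QA, a macrophage marker, was at 12, 410 and 502 in the day 12 CD43- samples, and it was listed at 0 in all samples of day 6 and in the day 9 CD43- cells. The part of the mix of cells in these differences between samples was not tested.

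**Figure D1:**
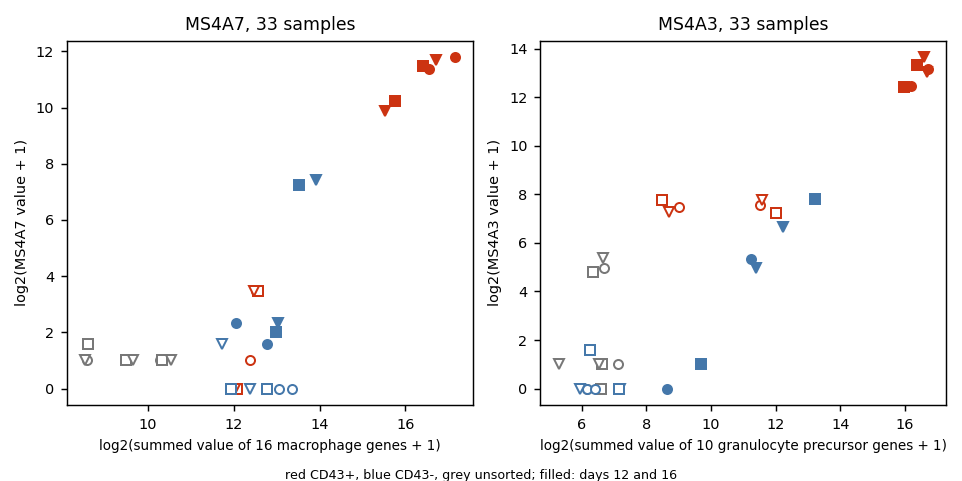
Left, MS4A7 against the summed value of 16 macrophage genes; right, MS4A3 against the summed value of 10 granulocyte precursor genes, without MPO and LYZ, which stand at the table's highest value; each point is 1 of 33 samples, both axes are log2(value + 1), red marks CD43+, blue CD43- and grey unsorted samples, and filled points are days 12 and 16. In the 3 day 9 CD43+ samples this sum was 2925 to 4083 and MS4A3 was 151 to 219, while in the day 12 CD43+ samples they were 74593 to 98233 and 5644 to 12854.

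MS4A2, the β chain of the IgE receptor, stayed low throughout. Its values were 8, 8 and 4 on day 4, and 4 in each day 6 CD43+ sample against 1, 1 and 2 in the CD43- samples. On day 9 they were 3, 6 and 2 in CD43+ cells and listed at 0 in all CD43- samples. On day 12 they were 6, 14 and 12 in CD43+ cells against 0, 1 and 2, and on day 16 they were 34, 22 and 22 against 1, 2 and 1. The sorted populations did not overlap on any of the 4 days, and the 3 values of the day 16 CD43+ cells were above those of every other population. They were nevertheless low in the table, since the day 16 median was above 28.1% of genes.
On day 6 the CD43 difference was 1.13 (standard error 0.39, adjusted p = 0.019, limma), under a 4-fold change. On day 9, MS4A2 was called higher in CD43+ cells (adjusted p = 3.36e-05, limma), and the call was lost under a pseudocount of 10. Without replicate 2 of the day 9 CD43+ cells, whose value of 6 was the highest, the difference was under 4-fold (adjusted p = 0.00069, limma). The rise from day 2 to day 4 was 1.89 (adjusted p = 0.000404, limma), also under 4-fold. The log2 differences described for days 12 and 16 were 2.61 and 3.53.

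The β chain is assembled with an IgE-binding α chain, FCER1A, and a signalling γ chain, FCER1G. FCER1A was listed at 0 in all CD43- samples of the 4 days and had values of 16, 10 and 5 in day 6 CD43+ cells, 14, 8 and 20 in those of day 9, 8, 0 and 4 in those of day 12 and 18, 13 and 18 in those of day 16. It was called on days 6, 9 and 16 and not on day 12 (adjusted p = 0.00161, limma, under 4-fold). These FCER1A calls rest on values of 5 to 20 against 0, so the size of the differences depends on the pseudocount. FCER1G, which other receptors also use, had values of 530, 426 and 385 in the day 6 CD43+ cells and 3945, 3460 and 5644 in those of day 16. Of 15 genes of this receptor and its signalling, 6 were higher in CD43+ cells and 0 lower on day 6. That count was 11 higher and 0 lower on day 9, and 11 higher and 1 lower on days 12 and 16 each, and the 1 lower gene was PLCG1, a phospholipase. Over all genes tested, the shares called higher and lower in CD43+ cells were 4.68% and 7.85% for day 6, 8.65% and 12.8% for day 9, 11.8% and 14.4% for day 12, and 12.2% and 13.6% for day 16. The median log2 difference of the 15 genes was 1.78, 3.82, 3.47 and 3.08 on the 4 days, beside 0.14, 0.24, 0.22 and 0.14 over all genes tested. The kinase SYK was higher by 3.82, 6.70, 5.30 and 5.41 on the 4 days (largest adjusted p = 4.07e-07, limma). The kinase LYN was higher by 2.04 on day 9 (adjusted p = 2.08e-12, limma) and 2.47 on day 12 (adjusted p = 2.33e-14, limma), and its differences of 1.78 on day 6 and 1.79 on day 16 were under 4-fold. The largest called differences in the list were those of the adaptor GRAP2 (6.82, adjusted p = 7.59e-09) and the kinase BTK (6.64, adjusted p = 1.73e-09) on day 12 and, besides SYK, of the adaptor LAT2 on day 16 (5.74, adjusted p = 2.42e-11, limma).

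Of 11 mast cell genes in the table, 4, 5, 8 and 9 were called higher in CD43+ cells on days 6, 9, 12 and 16, and 0 were lower. HDC, which makes histamine, was at 224, 206 and 272 on day 4 and had a log2 difference of 9.2 on day 12 (adjusted p = 1.63e-14, limma). CPA3, the carboxypeptidase of mast cell granules, was listed at 0 in all day 12 CD43- samples, and stood at 112, 98 and 112 in CD43+ cells of day 12 and at 236, 196 and 473 in those of day 16. The mast cell tryptase TPSAB1 was at 0 to 2 in all samples of days 6 and 9, at 15, 19 and 102 in the day 12 CD43+ cells and at 276, 214 and 380 in those of day 16. The log2 difference of TPSAB1 on day 16 was 7.48 (adjusted p = 3.65e-11, limma).

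MS4A4A, which is known from macrophages, did not follow the order of MS4A6A and MS4A7. Its values were 1 to 2 on days 0 and 2, and 32, 30 and 48 on day 4. On day 6 they were 30, 40 and 58 in CD43+ cells and 13, 14 and 4 in CD43- cells. On day 9 they were 22, 12 and 20 in CD43+ cells and 34, 4 and 18 in CD43- cells, where the populations overlapped. On day 12 they were 281, 75 and 62 in CD43+ cells against 8, 18 and 22, and on day 16 they were 200, 154 and 578 against 6, 6 and 4. MS4A4A rose from day 2 to day 4 (log2 difference 3.81, standard error 0.61, adjusted p = 1.53e-05, limma). It was higher in CD43+ cells on day 6 (2.05, standard error 0.61, adjusted p = 0.00666, limma), and the difference on day 9 was 0.31 (standard error 0.61, adjusted p = 0.678, limma). The change of the difference between these days was -1.75 (standard error 0.86, adjusted p = 0.17, limma). In the day 6 CD43- cells it was lower than on day 4 by less than 4-fold (-1.86, adjusted p = 0.0149, limma). The described log2 differences were 2.81 on day 12 and 5.39 on day 16. The day 6 call was close to the limit of 4-fold: it was lost without replicate 3 of the CD43- cells (1.54, adjusted p = 0.0563, limma), without replicate 3 of the CD43+ cells (1.81, adjusted p = 0.0336, limma) and with median-of-ratios scaling (1.89, adjusted p = 0.0131, limma), which moved the median of all genes by -0.139. With a pseudocount of 10, the day 6 difference was 1.38 and the rise from day 2 to day 4 was 1.98, both under 4-fold.

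**Figure D2:**
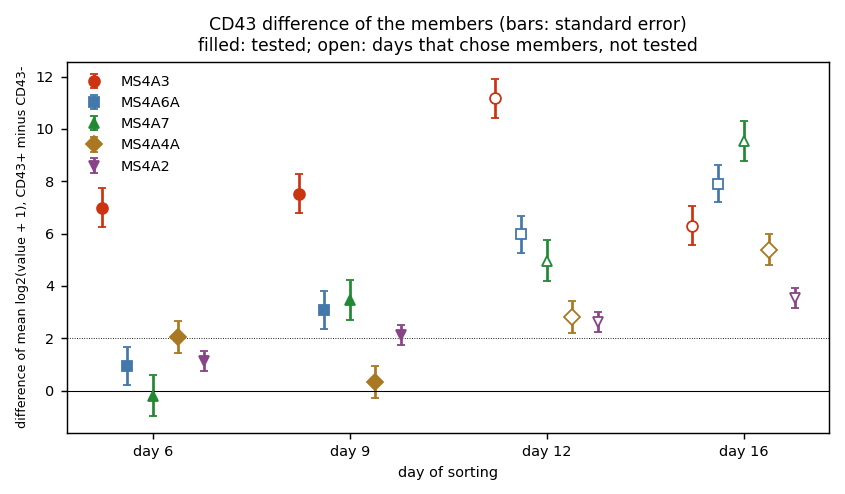
Difference of mean log2(value + 1) between CD43+ and CD43- cells (n = 3 each) for the 5 members on the 4 sorting days, with standard errors of the limma fit; filled symbols were tested, open symbols are the days that chose members, and the dotted line is a 4-fold change. MS4A3 is at 6.99 on day 6 where MS4A7 is at -0.19, and on day 16 MS4A7 is at 9.55 and MS4A3 at 6.30; where CD43- samples are listed at 0 the height depends on the pseudocount.

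Counted over the tested comparisons, 2 of 5 members were higher in CD43+ cells on day 6 (MS4A3 and MS4A4A) and 4 of 5 on day 9 (MS4A2, MS4A3, MS4A6A and MS4A7), where 4.68% and 8.65% of all genes tested were higher, and 0 members were lower on either day. From day 2 to day 4, 2 of 5 rose (MS4A3 and MS4A4A), where 4.97% of all genes tested rose. From day 4 to the day 6 CD43+ cells, 1 of 5 rose, with 6.8% of all genes, and to the day 6 CD43- cells, 1 of 5 fell, with 2.77% of all genes; both are MS4A3. In CD43+ cells from day 6 to day 9, 2 of 5 rose (MS4A6A and MS4A7), where 3.56% of all genes rose. In CD43- cells between these days limma called 0 of 5, with 1 at an unadjusted p below 0.05, and 1.75% of all genes in either direction. From day 0 to day 2 limma called 0 of 5, with 0 at an unadjusted p below 0.05, and 7.88% of all genes. The CD43 difference changed from day 6 to day 9 in 1 of 5 (MS4A7), with 7.39% of all genes in either direction. These comparisons share samples, and the members were chosen with results known. MS4A2 passed the filter only through CD43+ samples of days 12 and 16, and MS4A7 only through samples from day 9 onwards. The shares over all genes are given for scale, and no enrichment of the members is read from them.

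Ordered by their mean level, the members placed the day 12 and day 16 CD43+ cells in the first 2 of 11 populations, and the values of these populations overlapped for MS4A3, MS4A4A, MS4A6A and MS4A7 but not for MS4A2, which was higher on day 16. The next population was the day 9 CD43+ cells for MS4A3 (185.3 ± 34.0, SD, n = 3), the day 6 CD43+ cells for MS4A4A (42.7 ± 14.2), the day 12 CD43- cells for MS4A6A (107.3 ± 99.1) and MS4A7 (108.3 ± 91.1), and day 4 for MS4A2 (6.7 ± 2.3). In each case it overlapped the population after it. In the undifferentiated H1 sample, MS4A3 had a value of 2, MS4A6A of 1, and MS4A2, MS4A4A and MS4A7 were listed at 0.

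Across the 33 samples, which share populations and days, the pair with the highest Pearson's r of log2(value + 1) was MS4A6A and MS4A7 (0.968), and the lowest was MS4A4A and MS4A7 (0.691). MS4A2 and MS4A3, neighbours on the chromosome, had 0.860. These are descriptions of the order of the populations. The genes whose pattern was most like that of MS4A7 were C1QB (0.987) and C1QA (0.983), chains of complement C1q, then CTSS (0.976), ADAP2 (0.974) and CD163 (0.970). For MS4A6A they were CTSS, a lysosomal protease (0.983), FPR1, a formyl peptide receptor (0.978), AOAH (0.974), CD163, a haemoglobin scavenger receptor (0.973), and CD300LF (0.972). For MS4A3 they were HSD17B11 (0.951), MIR223, a myeloid miRNA gene (0.949), CTSG, a neutrophil granule protease (0.949), TNFAIP8 (0.947) and SLC28A3 (0.942). For MS4A2 they were RP11-704M14.1 (0.903), CPA3 (0.891), FXYD5 (0.886), PRAME (0.881) and CREG1 (0.876). For MS4A4A they were TLR4, the endotoxin receptor (0.919), LINC01410 (0.903), EMILIN2 (0.893), ZEB2-AS1 (0.884) and CTSB (0.879). CTSS and CD163 were in the first 5 of both MS4A6A and MS4A7 by Pearson's r. By Spearman's rho neither gene was in the first 5 of MS4A6A or of MS4A7.

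The granulocyte list that holds CTSG had, on day 6, 5 of 12 genes higher in CD43+ cells and 1 lower, 10 higher on day 9 and 12 higher on each of days 12 and 16. On day 12 the defensins DEFA3 (10.87, adjusted p = 2.87e-13) and DEFA4 (10.53, adjusted p = 5.37e-12, limma) were among the genes higher in CD43+ cells. The differences of MPO and LYZ are capped at the highest value of the table and cannot be ranked against them. DEFA3 was at 0 to 1 in all samples of days 6 and 9 and at 6002, 4374 and 4779 in the day 12 CD43+ cells. Of 10 eosinophil and basophil genes, 3 were higher and 1 lower on day 6, 8 were higher on day 9 and 9 on days 12 and 16 each. PRG2, the eosinophil major basic protein, had a log2 difference of 11.03 on day 12 (adjusted p = 4.93e-08, limma), and CLC one of 10.21 (adjusted p = 7.62e-12, limma).
MS4A3 is known to bind KAP, the product of CDKN3, which dephosphorylates CDK2. CDKN3 had values of 130, 156 and 112 in day 6 CD43+ cells, and its CD43 difference was 0.73 on day 6 (adjusted p = 0.023, limma, under 4-fold). On days 9, 12 and 16 it was 2.30, 3.13 and 3.26 (largest adjusted p = 2.49e-08, limma). The difference of CDK2 lay between -0.35 and 0.31 on the 4 days, and none was over 4-fold. Of 9 genes around CDK2 and KAP, 0 were called on day 6, and 3, 4 and 5 were higher on days 9, 12 and 16. The cyclins CCNA1 (3.55, adjusted p = 9.57e-06) and CCNE2 (3.18, adjusted p = 1.69e-09) had the largest differences on day 12 (limma).

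Of 16 macrophage genes, 3 were higher and 1 lower on day 6, 8 higher and 1 lower on day 9, and 14 higher and 0 lower on days 12 and 16 each, with median log2 differences of 0.02, 2.57, 3.8 and 6.85. CD163 was higher by 9.65 (adjusted p = 5.01e-12) and C1QA by 9.35 (adjusted p = 2.54e-10) on day 16 (limma). MARCO, a scavenger receptor, was listed at 0 in all day 12 CD43- samples and had values of 65, 147 and 148 in CD43+ cells.
Of 12 phagocyte receptors and partners that signal through ITAM motifs, 5 were higher on day 6, 10 on day 9 and 12 on days 12 and 16 each, and 0 were lower. CLEC7A (dectin-1), a β-glucan receptor that MS4A4A is known to associate with, had values of 2 in each day 6 CD43+ sample, 96, 88 and 92 in those of day 9, 4963, 2488 and 2554 in those of day 12 and 2866, 2679 and 4545 in those of day 16. Its log2 difference was 0.53 on day 6 (adjusted p = 0.562, limma) and 5.68, 5.64 and 8.63 on days 9, 12 and 16 (largest adjusted p = 9.06e-08, limma). TREM2, a lipid receptor of macrophages, had values of 106, 32 and 40 in day 6 CD43+ cells and was listed at 0 in the CD43- samples of days 6 and 9. FCGR3A, an IgG receptor, was higher by 6.46 on day 12 (adjusted p = 3.1e-06) and 8.26 on day 16 (adjusted p = 6.14e-08), and SIRPB1 by 6.96 on day 12 (adjusted p = 1.38e-10, limma).

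Of 10 lineage transcription factors, 3 were higher in CD43+ cells and 2 lower on day 6, 6 higher and 1 lower on day 9, 6 higher on day 12 and 8 higher on day 16. GATA1, a factor of erythroid, megakaryocyte, eosinophil and mast cells, stood at 166, 140 and 203 on day 4, at 2865, 2616 and 2677 in CD43+ cells of day 6, and at 321, 1012 and 782 in those of day 12. SPI1, the gene of PU.1, stood at 10, 6 and 6 on day 4, at 1553, 1247 and 1332 in CD43+ cells of day 6, and at 7746, 5870 and 6052 in those of day 12. CEBPE, a factor of late granulocyte precursors, was at 9, 5 and 8 in day 6 CD43+ cells, 99, 169 and 120 in those of day 9 and 590, 604 and 680 in those of day 12. Its log2 difference on day 12 was 8.76 (adjusted p = 5.42e-13, limma), and that of IRF8 on day 16 was 5.94 (adjusted p = 8.88e-08, limma).
Markers of other cells moved with the sort as well. All 9 erythroid genes were higher on days 6, 9 and 12 and 8 on day 16, and of 7 megakaryocyte genes 6 were higher on day 6 and 7 on each later day. All 8 mesenchymal genes were lower on days 9, 12 and 16 and 5 on day 6, and of 8 endothelial genes 0 were called on day 6 and 5 were lower on each later day. Of 9 T and NK cell genes, 5, 8, 4 and 5 were higher on the 4 days. Of 7 B cell genes in the table, 1, 6, 5 and 4 were higher, with CD79A at 46, 18 and 34 in the day 16 CD43+ cells and at 10, 4 and 7 in the CD43- cells. Their part in the values of the members was not tested.

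The other 7 genes of the family in the table, 5 of them MS4A genes and 2 the related TMEM176A and TMEM176B, went different ways. MS4A14 had values of 185, 88 and 54 in day 12 CD43+ cells and of 501, 449 and 405 in those of day 16, against 0 to 8 in the CD43- samples of both days. It was higher by 4.77 on day 12 (adjusted p = 2.68e-08) and 7.18 on day 16 (adjusted p = 1.23e-11, limma), and lies across MS4A7, with which it shares exonic bases. MS4A4E stood at 56, 25 and 32 in the day 12 CD43+ cells, was at 2, 0 and 0 in those of day 16, and was listed at 0 in every other sample. TMEM176B was higher by 2.18 on day 12 (adjusted p = 0.00644) and 3.00 on day 16 (adjusted p = 0.000379, limma). TMEM176A rose between days 9 and 12 in CD43- cells (3.88, adjusted p = 3.76e-08, limma) and CD43+ cells (5.05, adjusted p = 4.07e-11, limma), where its values were 66, 194 and 198 and 198, 119 and 171 on day 12.
MS4A8 was called higher in CD43- cells on days 6 and 9, and MS4A15 on days 9, 12 and 16. MS4A8 was listed at 0 in every CD43+ sample. It had values of 14, 18 and 94 in the day 6 CD43- cells (adjusted p = 6.15e-06, limma), 4, 20 and 0 in those of day 9 (adjusted p = 0.0119, limma) and 0 in those of day 12. On day 9 the sorted populations overlapped at 0 for MS4A8. With its CD43+ samples at 0, the size of its difference on both days depends on the pseudocount. MS4A15 had values of 28, 124 and 10 in day 9 CD43- cells against 1, 1 and 0 (log2 difference -4.43, adjusted p = 8.9e-05, limma), and was listed at 0 in the day 16 CD43+ cells against 50, 72 and 63. MS4A10 had values of 30, 42 and 20 in day 12 CD43- cells and of 52, 24 and 27 in day 12 CD43+ cells, was at 0 to 4 on all earlier days, and was listed at 0 in the day 16 CD43+ cells. Of the 7 genes, limma called 0 higher and 1 lower on day 6, 0 and 2 on day 9, 3 and 1 on day 12, and 2 and 2 on day 16. Over all genes tested, the shares higher and lower were 4.68% and 7.85% on day 6 and 8.65% and 12.8% on day 9. They were 11.8% and 14.4% on day 12 and 12.2% and 13.6% on day 16. With so few genes, nothing is read from these counts.

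**Figure D3:**
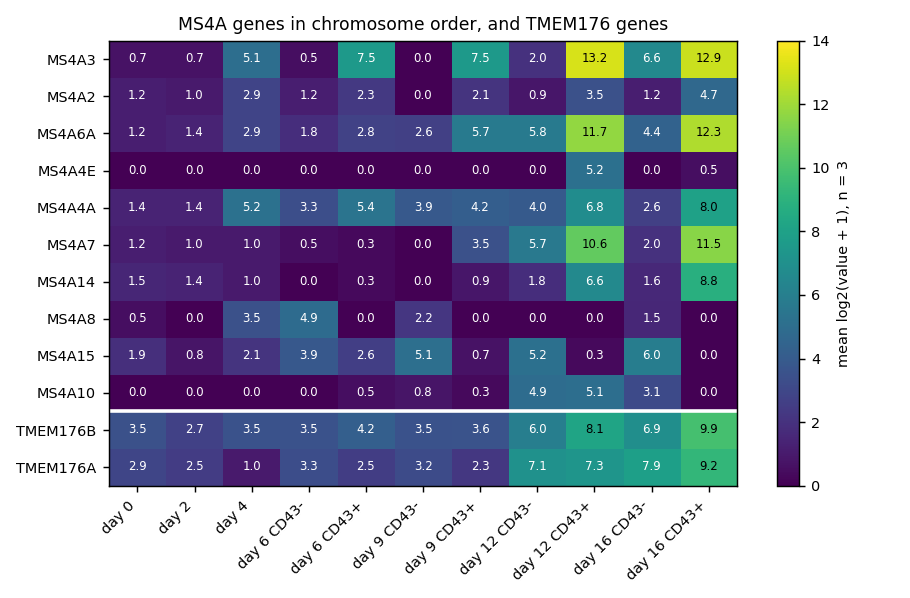
Mean log2(value + 1) of 3 replicates for the 10 MS4A genes in chromosome order and, below the white line, the TMEM176 genes, in 11 populations; colours run from 0 to 14 and are to be read along a row, since levels of different genes are not comparable. MS4A3 goes from 7.5 in the day 9 CD43+ cells to 13.2 on day 12, and MS4A15 is at 6.0 in day 16 CD43- cells and at 0.0 in the CD43+ cells.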

How the data were processed

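The deposited table was used. Per the study and the submitters' processing notes (STAR 2.7, Bowtie2, RSEM, hg38), the authors aligned reads, counted them per Ensembl gene and normalized them for GC content within and between samples with EDASeq. These deposited values are treated as a normalized score, neither counts nor CPM. The GC percent deposited by the authors describes the genes and entered no test. Log2(value + 1) was tested with limma 3.58.1 (lmFit and trended eBayes; R 4.3.3) over 33 samples without a replicate block, with Benjamini-Hochberg adjustment over 19788 genes. The undifferentiated sample, without replicate, was left out of the fit. Depth is unknown and no counting interval was computed.

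The members, the 15 gene lists and the rule for naming genes were chosen with earlier results of these data known. The rule covered the members, all other MS4A and TMEM176 genes of the table, the 5 genes with the highest Pearson's r to each member, the 2 called genes with the largest difference of each list on days 12 and 16, SPN, PTPRC and 10 partners of the members. A gene that this rule names is not reported here. Further listed genes (MPO, LYZ, PLCG1) were named after their values were seen. Not every list gene under the rule is printed: the erythroid, megakaryocyte, endothelial, mesenchymal and T and NK cell lists are given as counts only. Some genes of other lists, such as SIGLEC8 and TPSD1, are not printed either. The lists hold 156 genes, 144 of them tested, and 6 genes are in 2 lists. Whether same-numbered CD43+ and CD43- samples pair was checked from the correlation of their deviations from the population means: 0.109 to 0.199 on day 6, 0.017 to 0.078 on day 9, 0.039 to 0.108 on day 12 and -0.015 to 0.042 on day 16, so only the day 6 numbers were read as pairs. The labels do not give pairing, and the lowest day 6 correlation (0.109) was next to the highest of day 12 (0.108), so this reading is uncertain. The alternatives were pseudocounts of 0.1 and 10, no filter, a value of at least 100, median-of-ratios scaling, replicate blocks, a fold change above 2, robust variances, the compared populations fitted alone, Spearman's rho, each replicate left out and, chosen after seeing the data, day 12 CD43- replicates 2 and 3 left out. The procedure was tested on simulated data for the day 6 CD43 comparison alone. The changed genes there had neither very low nor very high day 6 CD43- levels, so calls of genes at the lowest values were not covered. Sequences come from RefSeq (GRCh38.p14), and exons from GENCODE v29. Strand use in the counting is not given in the sources used here.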

Additional observations from a re-analysis of the deposited data

Results flagged for a closer look

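The difference of MS4A7 between CD43+ and CD43- cells changed from day 6 to day 9 by 3.65 on the log2(value + 1) scale (adjusted p = 0.0189, limma interaction term). All 3 day 9 CD43+ values were 10, the day 9 CD43- values were listed at 0, and the day 6 values were 0 to 2 in both populations. Over the alternatives the change ranged from 1.04 to 6.97. It was not called with a pseudocount of 10 (1.04, adjusted p = 0.368, limma) or without replicate 3 of the day 6 CD43- cells (3.13, adjusted p = 0.0556, limma).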

How the results depend on the processing

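Of 568 tested values of single members under the alternatives, 541 kept their side of the threshold, 15 lost a call and 12 gained one. Differences that were called changed direction in 0 cases. Some that were not called changed sign: the day 9 CD43 difference of MS4A4A ranged from -0.48 to 0.92, and the day 6 one of MS4A7 from -0.53 to 0.33. The replicate block within a day left 2 members called on day 6, where the numbers were read as pairs, and the block across all days also left 2. Neither block changed another count. A pseudocount of 10 changed the counts most: members called fell from 2 to 1 (CD43, day 6), from 4 to 2 (CD43, day 9), from 2 to 0 (CD43+ cells, day 9 against day 6; and day 4 against day 2) and from 1 to 0 (day 6 CD43- cells against day 4; change of the CD43 difference). A pseudocount of 0.1 gave 0 instead of 1 (day 6 CD43+ cells against day 4), 1 instead of 0 (CD43- cells, day 9 against day 6) and 2 instead of 1 (day 6 CD43- cells against day 4; change of the CD43 difference). Median-of-ratios scaling gave 1 instead of 2 (CD43, day 6), the fit of only the populations compared 2 instead of 1 (change of the CD43 difference), and a fold change above 2 gave 3 instead of 1 (day 6 CD43- cells against day 4). Leaving out each replicate in turn gave 1 to 2 members (CD43, day 6), 1 to 2 (day 6 CD43- cells against day 4) and 0 to 2 (change of the CD43 difference); it gave 3 to 4 (CD43, day 9) and 2 to 3 (day 4 against day 2), and no other of the 9 counts moved. Of 144 listed genes, 127 were called in at least 1 of the 4 CD43 comparisons, 134 at a fold change above 2 and 119 with a pseudocount of 10. On day 12, 113 were called with all samples and 113 without CD43- replicates 2 and 3, 111 of them in both, where the lone CD43- sample is assumed to vary like the other populations. With Spearman's rho, 3 of the 5 genes most like MS4A2 stayed, 1 of MS4A3, 2 of MS4A4A, 0 of MS4A6A and 2 of MS4A7. Sequencing depth is unknown, so what it limits cannot be stated.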
